A study of Mus musculus with 10 samples.

Results

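The interleukin-1 (IL-1) family cytokines are small signalling proteins of inflammation, and 9 of their genes were followed here by name: Il1a, Il1b, Il1rn, Il36a, Il36b, Il36g, Il1f10, Il33 and Il18, out of 21887 protein-coding genes. The measurement was chromatin immunoprecipitation sequencing of H3K27me3, histone H3 trimethylated at lysine 27, the mark that Polycomb repressive complex 2 lays over silent genes. All cells were mouse macrophages on the C57BL/6 background, grown from bone marrow for 7 days with 20 ng/ml M-CSF. Both genotypes carried floxed Eif2ak3, which encodes PERK, a kinase of the unfolded protein response. WT cells were Eif2ak3 fl/fl, and KO cells were Eif2ak3 fl/fl x LysMcre, in which Cre is driven by the lysozyme M gene of myeloid cells. M0 cells were left unstimulated, M1 cells received 20 ng/ml LPS and 50 ng/ml IFNg for 24 h, and M2 cells received 20 ng/ml IL-4 for 24 h. The 10 libraries comprised, for each genotype, 1 of M0, 2 of M1 and 2 of M2.

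The readout for each gene was window cover, the percentage of the gene body with 5 kb on either side that lay under the authors' called H3K27me3 regions. The libraries held 12.6 to 20.9 megatags and 32320 to 39658 regions each. The M0 libraries had estimated fragments of 352 and 372 bp against 178 to 190 bp in the other libraries, so M0 entered no test against M1 or M2. Regions covered 157 Mb (WT) and 177 Mb (KO) of the genome in M0, against 214 to 251 Mb in the stimulated libraries. Lower cover of a gene in M0 cannot be told apart from that gap over the whole library. The WT replicate 1 libraries of M1 and M2 stood apart on the X chromosome, of which 18.3% (M1) and 31.0% (M2) lay under regions, against 0.402% to 0.579% in the other 8 libraries. None of the 9 genes is X-linked, and results of these 9 that turned on those libraries are given with and without them. Of 10 macrophage markers, 8 had windows free of regions in all 10 libraries and none was covered over 50% of its window in any library. Of 5 T cell markers, 1 to 3 were covered over at least 50% in each library (Cd3e in all 10, Cd3d and Lck in none), and of 5 stromal and endothelial markers 1 or 2 were (Col1a1 in all 10), while Col3a1 had no region. Neutrophil and B cell markers had 0 to 2 of 5 covered, and dendritic and epithelial markers 0 to 3 of 5. A weaker mark in every cell and a mark in fewer of the cells cannot be told apart in these bulk libraries.

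IL-1 alpha and IL-1 beta, the products of Il1a and Il1b, bind the IL-1 receptor and start fever and acute inflammation, and the product of Il1rn blocks that receptor. The IL-36 cytokines, encoded by Il36a, Il36b and Il36g, act mainly in skin and other barrier tissues through a receptor of their own. IL-33 is kept in the nuclei of barrier and stromal cells and alerts type 2 immunity, while IL-18 is made as a precursor that inflammasomes activate. Macrophages are known as a major source of IL-1 beta after LPS. On mouse chromosome 2 the family occupies 2 separate loci, one with Il36b, Il36g, Il36a, Il36rn, Il1f10 and Il1rn in that order and another with Il1a and Il1b. Il33 lies on chromosome 19 and Il18 on chromosome 9.

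Promoter sequences from RefSeq (GRCm38.p6, the mm10 build), 250 bases before to 50 after the outermost annotated start, are shown for the 3 genes whose start sites differed most plainly in their relation to called regions. They are written 5′ to 3′ on the gene's own strand, with CG dinucleotides in capitals. The Il33 start (chr19:29924863-29925162, plus strand) lay under a region in all 10 libraries. The Il1b start (chr2:129371090-129371389, minus strand) lay under a region in none, like those of Il36b, Il36g, Il1rn and Il18. The Il1f10 start (chr2:24290946-24291245, plus strand) lay under a region in the 8 stimulated libraries and in neither M0 library.
Il33: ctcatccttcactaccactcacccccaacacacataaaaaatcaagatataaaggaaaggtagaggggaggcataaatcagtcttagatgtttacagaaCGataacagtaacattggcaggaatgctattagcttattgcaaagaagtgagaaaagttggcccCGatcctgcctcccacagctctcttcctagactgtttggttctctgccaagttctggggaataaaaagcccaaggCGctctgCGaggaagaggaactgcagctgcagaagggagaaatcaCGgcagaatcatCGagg
Il1b: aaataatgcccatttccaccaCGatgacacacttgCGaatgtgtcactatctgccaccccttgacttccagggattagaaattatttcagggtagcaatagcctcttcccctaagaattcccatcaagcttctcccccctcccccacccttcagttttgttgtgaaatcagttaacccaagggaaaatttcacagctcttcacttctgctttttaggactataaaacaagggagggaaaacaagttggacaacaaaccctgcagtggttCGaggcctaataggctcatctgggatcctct
Il1f10: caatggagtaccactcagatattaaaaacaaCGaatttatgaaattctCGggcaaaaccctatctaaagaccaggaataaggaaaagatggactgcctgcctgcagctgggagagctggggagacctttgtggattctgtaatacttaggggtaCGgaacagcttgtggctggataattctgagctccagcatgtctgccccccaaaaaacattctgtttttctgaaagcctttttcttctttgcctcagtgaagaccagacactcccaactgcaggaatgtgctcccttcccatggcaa

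These promoters held few CG dinucleotides: 6 in Il33, 3 in Il1b and 3 in Il1f10, against a median of 13 over 21263 RefSeq promoters of the same length. The other family promoters held 5 (Il1a), 2 (Il36b), 1 (Il36g), 1 (Il1rn) and 1 (Il18). The median was 17 over the 3017 genes whose start lay under a region in all 10 libraries, so the Il33 start sat under the mark with fewer CG than that median. The letters TATAAA, sought on both strands, occurred in the promoters of Il33, Il1b, Il1a and Il18, and in 12.6% of all promoters. A match describes the letters only. Il36a had no entry, and so 8 of the 9 genes had an annotated start.

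Il33 had the widest cover of the 9 genes in 7 of the 8 stimulated libraries, all but WT M2 replicate 1, where Il1f10 exceeded it. Its body spans 29925113 to 29960718 on the plus strand of chromosome 19. Its window was covered over 89.3%, 94.7%, 87.7% and 80.4% in the M1 libraries, in the order WT replicates 1 and 2 and KO replicates 1 and 2. In M2 the values in the same order were 59.9%, 86.2%, 78.7% and 63.2%, and in M0 they were 20.0% (WT) and 27.7% (KO). All 8 stimulated libraries lay above both M0 libraries, whereas the M1 and M2 values overlapped through WT M2 replicate 2. The mean was 88.0% ± 5.94 (SD, n = 4) in M1 and 71.97% ± 12.5 (SD, n = 4) in M2. That difference, M2 minus M1, was -16.1 percentage points (exact two-sided permutation test, p = 0.0571, adjusted p = 0.880). Without WT M2 replicate 2 the M1 and M2 values no longer overlapped and the difference was -20.8 points (exact permutation p = 0.0286 before adjustment). Il33 was the 1 member covered over at least 50% in all 8 stimulated libraries and in neither M0 library, a pattern shown by 0.777% of all protein-coding genes.

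The states differed more plainly in how far the Il33 domain reached than in whether the gene was marked. In M0 the region over the outermost start was 3.16 kb (WT) and 3.53 kb (KO) long. The region over the same start measured 67.7, 98.1, 97.7 and 97.9 kb in the M1 libraries and 48.5, 52.9, 28.8 and 20.6 kb in the M2 libraries. Every M1 region was thus longer than every M2 region. Both were longer than the M0 regions, whose libraries had less of the whole genome under regions. The mean length was 90.3 kb ± 15.1 (SD, n = 4) in M1 and 37.7 kb ± 15.5 (SD, n = 4) in M2. The difference was -52.6 kb (exact two-sided permutation test, p = 0.0286, the smallest the design allows, and adjusted p = 0.853 over 5239 genes). This measure was chosen after its values were seen. The lengths were the same when only regions of at least 15.9 tags per kb were kept, a minimum explained with Il1b. Without both WT replicate 1 libraries the regions were 97.7 to 98.1 kb long in M1 and 20.6 to 52.9 kb in M2. The call was lost when regions under 2.5 kb apart were joined (-61.7 kb, exact permutation p = 0.0571), with the upper 50% of regions by score (-36.8 kb, exact permutation p = 0.429) and without KO M2 replicate 1 or 2 (exact permutation p = 0.0571). Short breaks thus entered the length of a region, and regions on both sides of such breaks are visible in the map of Il33. Of the 5239 genes with such a region in the stimulated libraries, 2.10% had one longer in all M1 than in all M2 libraries. Among the 8 members with an annotated start, Il33 was the 1 whose start lay under a region in all 10 libraries, as did 17.2% of all genes with a start.

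In M1 and in WT M2 most of the region lay upstream of the gene, and in KO M2 most of it lay within the gene. Counted from the start, with negative values upstream, the upstream edge of the region stood at -1.11 kb (WT) and -2.14 kb (KO) in M0. In M1 it stood at -39.4, -69.3, -69.4 and -69.6 kb, nearly the same place in 3 of the 4 libraries. In M2 it stood at -34.1 and -34.7 kb in the WT libraries and at -8.16 and -5.54 kb in the KO libraries. The shorter M1 region belonged to WT replicate 1, one of the libraries that stood apart on the X chromosome. On the other side the M1 regions ended 28.3 to 28.8 kb past the start, inside the gene body. Over the 100 kb upstream of Il33, cover was 10.5% and 11.5% in M0, 75.2% to 82.8% in M1, 70.2% and 68.8% in WT M2, and 60.7% and 41.2% in KO M2. Both M2 measures separated WT from KO, but an exact permutation test of 2 libraries against 2 cannot reach a p under 0.05, and no test of this difference was run.

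**Figure D1:**
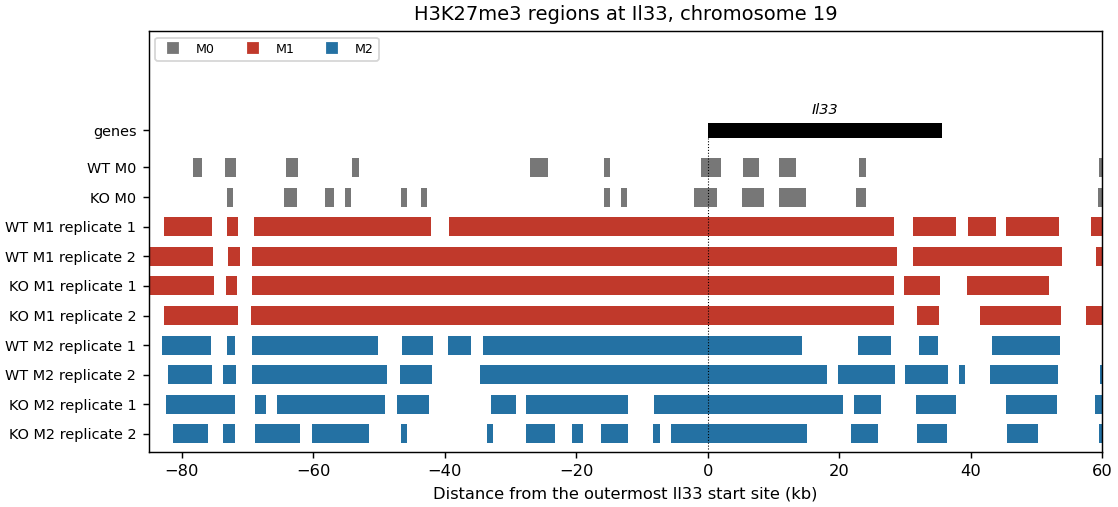
Called H3K27me3 regions (bars) around Il33 in each of the 10 libraries, drawn against the distance from its outermost start site in kb, with genes in black, the outermost Il33 start as a dotted line and regions clipped at the edges of the view. The region over the start is 3.16 to 3.53 kb long in M0, 67.7 to 98.1 kb in M1 and 20.6 to 52.9 kb in M2.

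The authors' tag counts followed the same order. The region over the Il33 start held 55.5 and 66.9 tags per 10 megatags in M0. It held 1378, 1869, 2045 and 1880 in M1 and 841, 1072, 593 and 463 in M2. The M1 and M2 counts did not overlap, and since these are sums over regions of unequal length, the density is given too. Over all regions touching the Il33 window, density was 17.9 and 18.2 tags per kb in M0, 18.0 to 20.0 in M1 and 17.0 to 21.4 in M2. The M1 and M2 densities overlapped, whereas the lengths did not. A second annotated Il33 start, at 29945790 inside the gene, lay under a region in all 4 M1 libraries and in WT M2 replicate 2.

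Il18 showed the opposite picture. Its body, at 50554700 to 50581841 on chromosome 9, and its flanks held no called region in any library, and the nearest region lay 41.6 to 138 kb from its start. Bco2 and Tex12, whose bodies overlap its own, were also free of regions in all 10 libraries. Sdhd, 14.5 kb away, had 5.72% cover in 4 libraries and 0% in the other 6. Il1rn, at 24336860 to 24351491 on chromosome 2, was the other member with no region in any library. Its nearest region lay 30.4 to 42.6 kb from the outermost start. These 2 of 9 members compare with 43.8% of all protein-coding genes whose windows were free of regions in all 10 libraries.

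**Figure D2:**
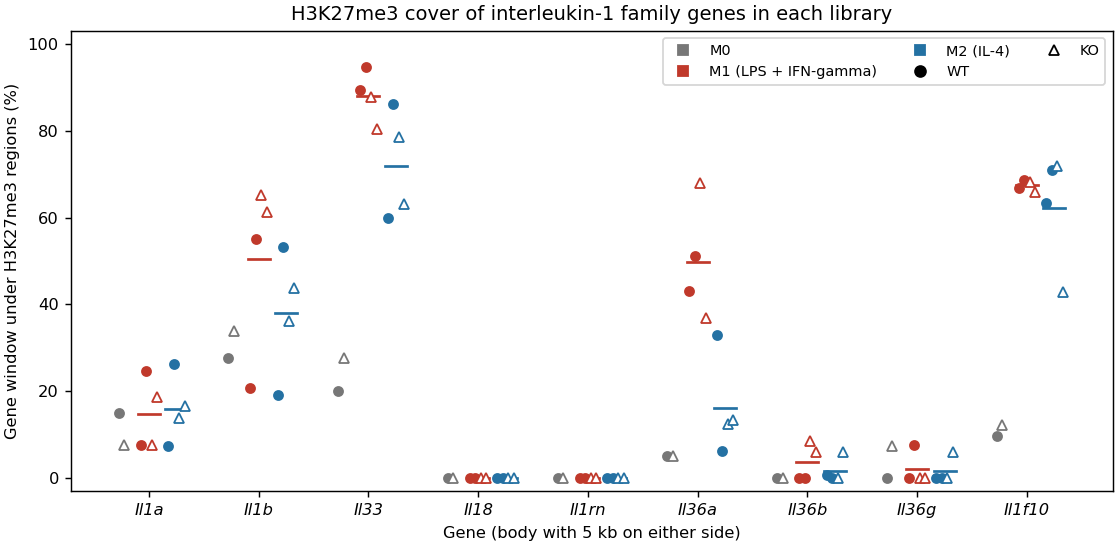
Window cover (percentage of the gene body with 5 kb on either side under called H3K27me3 regions) for each interleukin-1 family gene, with 1 point per library, coloured by state and shaped by genotype. Il33 reaches 80.4% to 94.7% in M1, Il1rn and Il18 stay at 0%, and Il36a is 36.8% to 68.1% in M1 against 6.17% to 32.98% in M2.

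Il1b carried regions over its body but never over its start. A start under no region was common, found for 11810 of the 17492 genes with a start and also for Il36b, Il36g, Il1rn and Il18. The gene spans 129364569 to 129371164 on the minus strand of chromosome 2. Window cover was 27.6% (WT) and 33.9% (KO) in M0, then 20.6%, 55.2%, 65.1% and 61.3% in M1, and 19.2%, 53.2%, 36.3% and 43.7% in M2, in the library order used above. Both WT replicate 1 libraries were the lowest of their states, below the M0 libraries. The nearest region to the start always lay on the gene-body side, between 0.173 kb (KO M1 replicate 2) and 3.05 kb (WT M2 replicate 1) away. The Il1b body itself was 27.3% to 97.0% covered, so in some libraries nearly all of the body beyond the first part was marked. The regions at Il1b held 13.0 to 17.7 tags per kb, scaled to 10 megatags, close to the authors' own calling thresholds, which ran from 12.9 to 15.9 tags per kb on the same scale. When only regions of at least 15.9 tags per kb, the highest of those thresholds, were kept, Il1b cover fell to 0% in all 4 M1 libraries and to at most 0.181% in 3 of the M2 libraries. It stayed at 43.7% in KO M2 replicate 2 and at 27.6% and 33.9% in M0, and the difference M2 minus M1 turned to 10.97 points (exact permutation p = 0.429).

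Il1a, the neighbouring gene that ends the same locus, had less cover. It spans 129299609 to 129310186, also on the minus strand. Window cover was 14.9% and 7.57% in M0, 7.6%, 24.6%, 7.48% and 18.7% in M1, and 7.25%, 26.3%, 13.7% and 16.4% in M2. The states overlapped fully. Its start lay under a region in 1 library, WT M2 replicate 2, where the region was 26.99 kb long. In the other 9 libraries the nearest region lay 1.16 to 3.72 kb upstream of the start.

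The 54.4 kb between Il1a and Il1b held called regions in every library, M0 included. Cover of that interval was 36.6% and 32.6% in M0, 34.0%, 57.7%, 54.2% and 58.0% in M1, and 42.9%, 61.6%, 43.5% and 35.8% in M2. The WT M1 replicate 1 value fell within the M0 range while the other 3 M1 libraries lay above it. With only regions of at least 15.9 tags per kb kept, cover fell to 4.73% in WT M1 replicate 1 and 0% in WT M2 replicate 1. It was 32.6% to 56.0% in the remaining libraries. The neighbour Ckap2l, a mitotic spindle gene on the far side of Il1a, had 0% to 2.57% cover. Regions of the locus thus stood between the 2 cytokine genes and over the Il1b body, and the start sites lay at their edges.

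**Figure D3:**
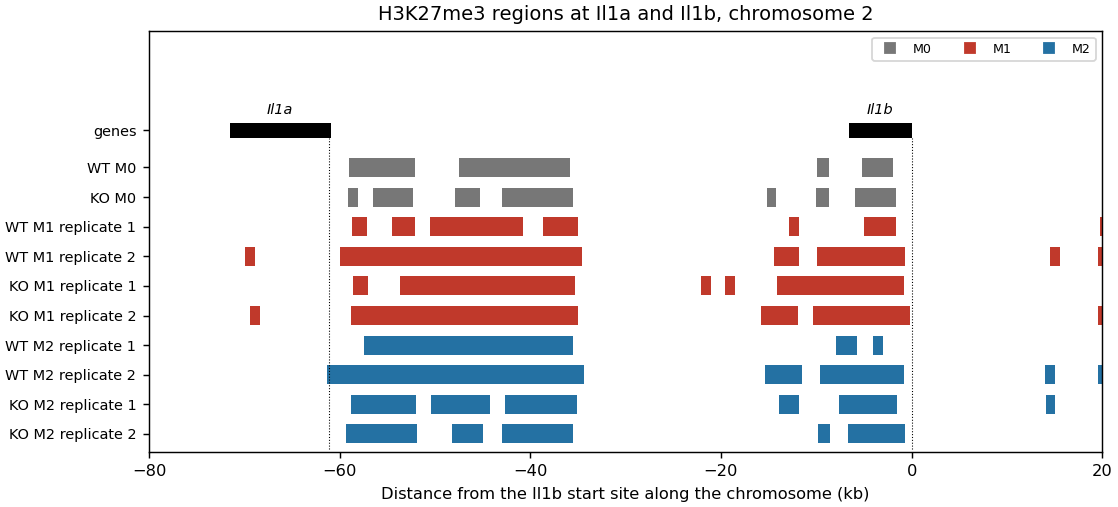
Called H3K27me3 regions (bars) across Il1a and Il1b in each of the 10 libraries, drawn against the distance from the Il1b start site in kb, with gene bodies in black and start sites as dotted lines. The Il1b start lies outside every region and the interval between the genes is 32.6% to 61.6% covered.

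In the IL-36 locus the mark was uneven along 198 kb. Il36g and Il36b, at the far end from Il1rn, were nearly free of it. Il36g had 0% in 7 libraries and 7.43% (KO M0), 7.62% (WT M1 replicate 2) and 5.86% (KO M2 replicate 2) in the others. Il36b had 0% in 6 libraries and at most 8.43% (KO M1 replicate 1). Each of these values came from a single region at the window's edge or body, 1.00 to 1.43 kb long, about the size of one calling window of 1000 bp.

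Il36a was the member whose M1 and M2 values did not overlap. The gene spans 24215417 to 24225701. Window cover was 4.93% in both M0 libraries, 43.1%, 51.1%, 68.1% and 36.8% in M1, and 32.98%, 6.17%, 12.3% and 13.3% in M2. Every M1 library exceeded every M2 library, although KO M1 replicate 2 and WT M2 replicate 1 stood within 4 points of each other. The mean was 49.8% ± 13.5 (SD, n = 4) in M1 and 16.2% ± 11.6 (SD, n = 4) in M2. The difference, M2 minus M1, was -33.6 points (exact two-sided permutation test, p = 0.0286, the smallest possible, and adjusted p = 0.880). The call was lost with the gene body alone (-41.7 points, exact permutation p = 0.0571), with the upper 50% of regions by score (-24.4, p = 0.143), with joined regions (-31.6, p = 0.0857), without any 1 of the M1 libraries (p = 0.0571, with values still not overlapping), and without both WT replicate 1 libraries (-41.4, where the smallest possible exact p was 0.10).

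The Il36a regions of M1 were faint. They held 110.8, 210.1, 347 and 153.5 tags per 10 megatags in all, at 12.7, 14.0, 13.6 and 13.1 tags per kb. These densities were near the calling thresholds of the same libraries, 13.1 to 13.6 tags per kb. With only regions of at least 15.9 tags per kb kept, Il36a was at 0% in all 4 M1 libraries and the difference turned to 4.62 points in the other direction (exact permutation p = 0.429). The higher M1 cover of Il36a thus rested on regions near the calling threshold of their own libraries. The turn in sign was not a like comparison, since the minimum cut the libraries unevenly, as given with Il1b.

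**Figure D4:**
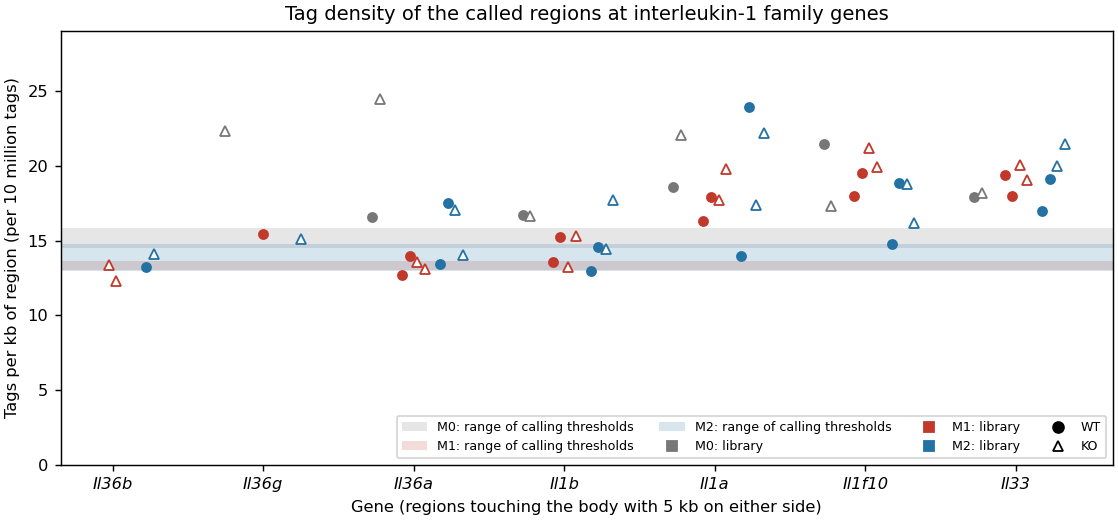
Tag density of the called regions touching each gene's window (tags per kb, per 10 megatags), with 1 point per library that had a region and shaded bands for the range of the authors' calling thresholds in each state. Il36a in M1 (12.7 to 14.0) lies close to its band, Il1b (13.0 to 17.7) runs from its bands to above them, and Il33 (17.0 to 21.4) lies above them.

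Between Il36a and Il36rn, the gene of the IL-36 receptor antagonist, lie 51.3 kb whose cover also separated the states. It was 4.86% and 6.87% in M0, 58.7%, 70.3%, 71.0% and 63.5% in M1, 48.5% and 38.9% in WT M2, and 15.6% and 9.86% in KO M2. The M1 and M2 values did not overlap, nor did those of WT and KO within M2, although 2 libraries against 2 are too few for an exact permutation test to reach a p under 0.05. With the density minimum of 15.9 tags per kb the interval had 10.6% to 26.3% cover in M1 and 0% to 15.6% in M2, so the 2 states overlapped. The genotypes of M2 then overlapped too, with 0% and 15.6% in WT against 5.17% and 0.708% in KO. The 0% belonged to WT M2 replicate 1, where a region of 15.3 tags per kb ranked at the 77.4th percentile of density. This interval was chosen after its values were seen, and no test was run on it.

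Il1f10, the gene of IL-38, lay at 24291196 to 24294165 in the stretch of the locus with the widest cover. Window cover was 9.66% and 12.2% in M0, 66.8%, 68.7%, 68.2% and 66.0% in M1, and 63.3%, 70.9%, 71.9% and 42.8% in M2. Apart from KO M2 replicate 2, the stimulated libraries lay within 63.3% to 71.9%. The whole Il1f10 body was covered in all 8 stimulated libraries. A single region spanned both Il36rn and Il1f10 in 7 of these libraries, with lengths of 24.6, 24.9, 24.9 and 23.2 kb in M1 and 23.0, 25.2 and 18.7 kb in M2. In KO M2 replicate 2 it was split, and the piece over Il1f10 was 5.55 kb long. That library had the fewest tags of the stimulated ones (14.2 megatags) and the least covered genome (214 Mb), and the part of depth in its lower values was not tested.

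The window of Il36rn itself, which is listed under an older symbol in the gene table, was 33.4% and 31.6% covered in M0. It was fully covered in all 4 M1 and both WT M2 libraries, against 68.7% and 52.4% in KO M2. In WT M2 replicate 1 that cover came from 1 region of 14.7 tags per kb, under the density minimum of 15.9. The regions of WT M2 replicate 2 (18.9 tags per kb) and of KO M2 (18.8 and 19.4) lay above that minimum. The WT M2 replicate 1 region lay above its own library's threshold of 12.9 tags per kb and ranked at the 71.9th percentile of density there. The region over Il36rn and Il1f10 ended before Il1rn, and no region touched that gene or its flanks. Density at Il1f10 was 18.0 to 21.2 tags per kb in M1, above the thresholds, and the M1 cover stayed at 66.0% to 68.7% with the density minimum. In M2 the same minimum left Il1f10 at 0% in WT M2 replicate 1, whose region held 14.7 tags per kb, and unchanged in the other 3 libraries, so the difference M2 minus M1 moved from -5.19 to -21.0 points (exact permutation p = 0.429). Across the whole locus from Il36b to Il1rn, cover was 4.25% and 5.67% in M0, 27.03% to 35.5% in M1 and 9.76% to 24.4% in M2. With the density minimum the locus had 11.7% to 15.9% cover in M1 and 0% to 13.3% in M2, so these states overlapped.

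**Figure D5:**
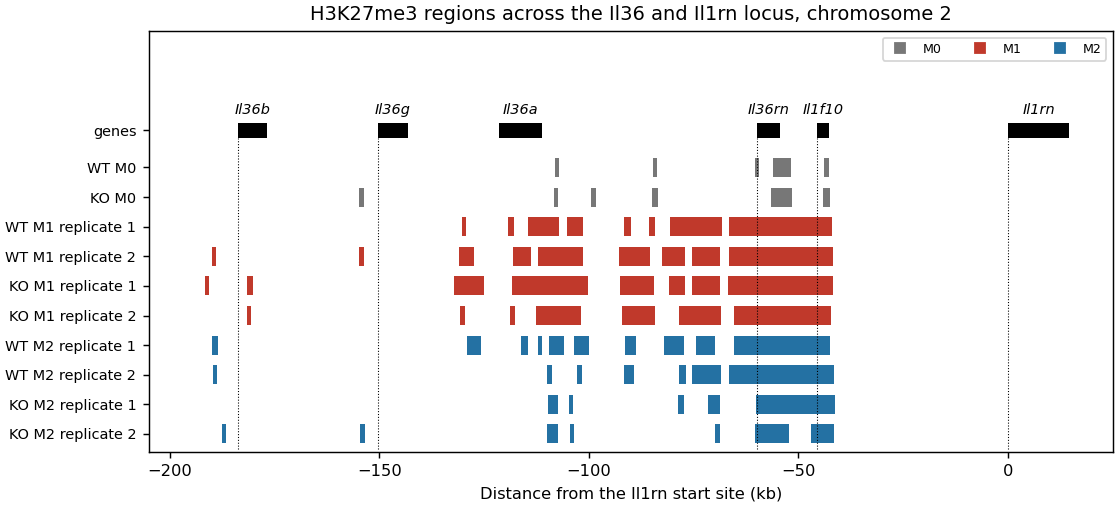
Called H3K27me3 regions (bars) across the locus from Il36b to Il1rn in each of the 10 libraries, drawn against the distance from the Il1rn start site in kb, with gene bodies in black and start sites as dotted lines (none for Il36a). Regions lie over the whole Il1f10 body in all 8 stimulated libraries, cover less of the Il36a window in M2 (6.17% to 32.98%) than in M1 (36.8% to 68.1%) and are absent around Il1rn.

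Set against Il33 and Il18 as a pair, the 7 chromosome 2 members had lower mean cover in every library. The difference, chromosome 2 mean minus the mean of Il33 and Il18, was -1.86 and -4.44 points in M0, -24.9, -17.8, -12.8 and -13.2 in M1, and -12.3, -20.7, -20.2 and -13.3 in M2. The mean over libraries was -14.2 points. The pair is itself made of opposites, with Il18 at 0% throughout and Il33 above every chromosome 2 member in 7 of 8 stimulated libraries. These chromosome 2 genes share 2 loci and single regions can touch several of them, so they were not treated as replicates. Members covered over at least 50% numbered 0 in both M0 libraries, 2, 4, 4 and 3 in M1, and 2, 3, 2 and 1 in M2. The share of all genes covered to that extent in each library was not counted. These counts therefore describe the list only and show nothing particular to the family.

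M1 against M2 was compared by exact permutation over the 8 stimulated libraries, with p adjusted over the 11759 genes with any cover. The genotypes were pooled, so state labels were exchanged across genotypes and not within them, also for the Il33 region lengths. Il36a was the 1 of 9 members higher in all M1 than in all M2 libraries, beside 2.04% of all genes tested. None of the 9 was higher in all M2 libraries, beside 1.04% of all genes. A share of 1 in 9 rests on a single gene and says nothing of the family. The remaining differences, M2 minus M1, were -12.5 points for Il1b (exact permutation p = 0.314), -5.19 for Il1f10 (p = 0.714), 1.34 for Il1a (p = 0.914), -1.96 for Il36b (p = 0.714) and -0.44 for Il36g (p = 1). Without both WT replicate 1 libraries the Il1b difference was -16.1 points (exact permutation p = 0.1, the smallest possible there). The median over the 9 members, with the genes without regions at 0, was -1.96 points, against 0 over all 21887 genes. Over the 7 members that could be tested it was -5.19 points, against 0 over the genes tested, which describes the list only. The smallest adjusted p over all genes was 0.880, so no gene passed after adjustment, although 362 genes had an unadjusted exact p under 0.05.

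KO against WT was compared with labels exchanged within states over all 10 libraries, where the smallest exact p is 0.0278. None of the 9 members reached it, beside 4.23% of the 12294 genes tested. The largest member difference, KO minus WT, was 12.9 points for Il1b (exact permutation p = 0.278). Il1b was higher in both KO M1 libraries (65.1% and 61.3%) than in both WT M1 libraries (20.6% and 55.2%), while in M2 the genotypes overlapped. Without both WT replicate 1 libraries the Il1b difference was -0.387 points (exact permutation p = 1), and without WT M2 replicate 2 it was 19.6 points (exact permutation p = 0.0278). The Il1b value thus rested on which WT library was included. The other differences were 3.93 points for Il36b, 1.13 for Il36g, -0.566 for Il36a, -3.67 for Il1f10, -3.35 for Il1a and -2.51 for Il33, with exact permutation p of 0.167 to 1. Without both WT replicate 1 libraries the Il1a difference was -10.3 points (exact permutation p = 0.0556, the smallest possible there). The median over the 9 members was 0 points, against 0 over all 21887 genes. Over the 7 tested it was -0.566, against 0.590 over all genes tested. The smallest adjusted p over all genes was 0.657, and 520 genes had an unadjusted exact p under 0.05.

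The authors' deposited tables of differential regions between the genotypes held 93 entries higher in KO and 49 higher in WT for M1, and 1049 and 185 for M2. In the authors' deposited tables no entry lay within 5 kb of a member or of Il36rn. The authors' deposited table of M2 regions higher in WT held 1 entry within 50 kb, at 24257328 to 24257728 on chromosome 2, between Il36a and Il36rn. The authors' deposited table gave it a log2 fold, KO over WT, of -2.06 with p-value 0.00377 and false discovery rate 0.181. This stretch lay under a called region in WT M1 replicates 1 and 2, KO M1 replicate 1 and WT M2 replicate 1, and outside regions in the other 6 libraries. It lies in the interval between these genes described above, in which the genotypes of M2 overlapped once the density minimum was applied.

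Among genes that work with the cytokines, the share free of called regions was near that of all genes. It was 18 of 40 (45%) in all 10 libraries, against 43.8% of all protein-coding genes. Irak1 and Il1rapl2 of these lists are X-linked and had regions only in the WT replicate 1 libraries of M1 and M2. Irak1 had 83.1% and 100% cover there, and Il1rapl2 had 6.11% and 26.4%. Both would count as free without those libraries, and the free counts of the lists are given only with them. Tab3 and Il1rapl1, also X-linked, had most of their cover in the same libraries. Tab3 had 51.3% (M1) and 89.9% (M2) there, and at most 1.42% elsewhere. Il1rapl1 had 5.12% and 30.4% there, and at most 0.0723% elsewhere. Of 11 receptors and decoys, 1 was free of regions in all libraries and at most 1 was covered over at least 50% of its window in any library. That gene was Sigirr, an inhibitory receptor of the family, covered in 9 of 10 libraries and named after its values were seen. None of the 11 was higher in all M1 or in all M2 libraries. Il1rl2, the IL-36 receptor, was the 1 that reached the smallest p between genotypes, beside 4.23% of all genes tested. It was 7.92 points higher in KO (exact permutation p = 0.0278, adjusted p = 0.657). The list's median difference, M2 minus M1, was -1.21 points.

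Of 15 genes for processing and release, such as inflammasome parts, caspases and gasdermins, 9 were free of regions in all libraries, to be read beside the same 43.8%. Aim2, a sensor of cytosolic DNA, was the 1 higher in all M1 libraries, beside 2.04% of all genes tested (M2 minus M1 -7.02 points, exact permutation p = 0.0286, adjusted p = 0.880). Its cover was 42.6% to 43.0% in M1 and 41.1%, 40.7%, 38.5% and 22.7% in M2, the lowest in KO M2 replicate 2. Prtn3, a neutrophil protease that can cleave IL-1 family proteins, was 13.4 points higher in KO (exact permutation p = 0.0278, adjusted p = 0.657), beside the same 4.23%. Of 14 signalling genes, 8 were free of regions, and none reached the smallest p in either comparison. No gene of these 3 lists was covered over at least 50% in all 10 libraries, and the median differences of the processing and signalling lists were 0 in both comparisons.

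Genes with cover most like that of a member over the 10 libraries were sought only on chromosomes other than the member's own. Likeness was the mean absolute difference in window cover, given for members whose cover varied by an SD of at least 10 points. Nearest to Il33 were Cyp2e1 (5.12 points), Mgat4d (5.20) and 9330182O14Rik (5.72). Those nearest to Il1f10 were Septin14 (5.05), Syn2 (5.80) and Tsga13 (5.83). For Il1b they were Dmc1 (4.81), Rasgrf1 (6.67) and Iqch (6.87), and for Il36a they were Stk31 (6.48), Gm5373 (7.87) and Rbm46 (7.90). Such likeness describes cover in these libraries, which share depth and calling thresholds.

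Neighbouring genes differed widely in cover. Within 200 kb of Il1rn, Psd4 had 2.29% to 6.61% and Pax8, a developmental transcription factor, 30.7% to 83.2%. Next to Il33, Uhrf2 had 0% to 0.900% while Gldc, the gene of a glycine-cleaving enzyme, had 14.5% to 60.4%. On the Il36b side, Tbpl2 had 5.68% to 48.5%, and Hnmt had 0% in all 10 libraries. Near Il18, Dixdc1 had 30.1% to 48.3%.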

How the data were processed

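H3K27me3 was measured by chromatin immunoprecipitation sequencing in 10 libraries, grouped by genotype and stimulus as the labels give them. Replicates are separate biological samples according to the series' text, and the tests rest on the spread between them. The submitters' processing notes name HOMER 4.8, DiffBind 2.0.2, Bowtie2 2.4.2, deepTools 3.5.1 and SAMtools 1.10, and the mm10 build. The authors called regions per library without an input, with HOMER's region mode (windows of 1000 bp, gaps of up to 2500 bp, false discovery rate 0.001), per the file headers. The deposited signal is a tag count per 10 megatags, and the deposited score and clonal fold ratio are the authors' own, per the file headers. The score served only to rank regions. The authors' tables of differential regions give log2 concentrations and folds, p-values and false discovery rates. How these tables were fitted is not given in the sources used here.

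With Python 3.11.15, numpy 2.4.6 and scipy 1.17.1, overlapping regions were merged and cover was computed over gene bodies with 5 kb flanks. Gene positions and promoters came from RefSeq tables (GRCm38.p6), and exon structure was not used here. The tests were exact two-sided permutations with Benjamini-Hochberg adjustment over all genes with any cover. Cover, permutation and adjustment steps were tested on simulated data. The members, the pathway lists and the markers were chosen with earlier results of these data known. All 9 members and Il36rn were named. List genes were named only at the smallest p of a comparison or when covered in all 10 libraries. The exceptions were Sigirr, Irak1, Il1rapl2, Tab3, Il1rapl1, marker genes and neighbours, named after their values were seen. Alternatives changed the regions kept, the joining gap, the flank, the cover threshold and the libraries. The number of tags limits which faint regions are called, and region lists hold no read counts outside regions.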

Additional observations from a re-analysis of the deposited data

Results flagged for a closer look

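In 3 cases a single-library value stood far from the rest of its group of 4 libraries, by Dixon's criterion at 95%, which chance meets in about 1 in 20 groups of continuous values. That rate does not hold where the other libraries are all at 0, as for Il36g, since any single called region then meets the criterion. The Il36b window was 5.91% covered in KO M2 replicate 2, against 0% to 0.591% in the other M2 libraries. The Il36g window was 7.62% covered in WT M1 replicate 2, against 0% in the other M1 libraries. It was 5.86% covered in KO M2 replicate 2, against 0% in the other M2 libraries. Each value came from 1 region of 1.00 to 1.30 kb, at 14.1 to 15.4 tags per kb, near the calling thresholds.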

How the results depend on the processing

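The number of members with separate M1 and M2 values (1 in the report, Il36a) was 0 with the upper 50% of regions by score, with regions under 2.5 kb apart joined and with the gene body alone. It was 1 to 2 without 1 library at a time, where leaving out WT M1 replicate 1 added Il1b, and KO M1 replicate 2 or WT M2 replicate 2 added Il33. It was 2 without both WT replicate 1 libraries, Il36a and Il1b. The number at the smallest p between genotypes (0) was 0 to 1 without 1 library, and 1 without both WT replicate 1 libraries, which was Il1a. For the replicate block, members at its smallest exact permutation p, 0.125, were counted instead of members with separate values. That count was 3 members between M1 and M2, beside 1326 of the 11759 genes tested. The labels do not say that the numbers pair samples. Deviations of same-numbered libraries correlated at 0.652 between WT M1 and WT M2 (0.161 on autosomes), and at -0.10 to 0.0268 in the other 3 pairings, so the numbers were not used as pairs. Crossing the numbers between genotypes gave 1065 genes at the smallest blocked p, against 930 uncrossed.

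With the upper 50% by score, the mean difference between the chromosome 2 members and Il33 with Il18 was -2.33 points. The mean number of covered members was 2.1 per library and 0.6 at a threshold of 75%.

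Differences M2 minus M1 that changed sign were as follows. With the upper 50% by score, Il36b was 0.148, Il1f10 11.5 and Il1a -0.34. With an equal number of top regions, Il1f10 was 11.5. With the gene body alone, Il1a was -3.77. With the density minimum, Il36a was 4.62 and Il1b 10.97. Without 1 library, Il36g ranged from -1.90 to 1.46, Il1f10 from -8.39 to 1.29 and Il1a from -2.11 to 4.66.

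Differences KO minus WT also changed sign. With the upper 50% by score, Il36b was -0.118, Il36g -0.0374 and Il1f10 9.70. With an equal number of top regions, Il36a was 0.706 and Il1f10 9.69. With the density minimum, Il36a was 1.23, Il1f10 8.999 and Il33 0.681. With the gene body alone, Il1f10 was 1.92. Without both WT replicate 1 libraries, Il36a was 2.99 and Il1b -0.387. Without 1 library, Il36g ranged from -0.44 to 2.95, Il36a from -6.43 to 4.59, Il1f10 from -7.83 to 1.86 and Il33 from -6.93 to 1.82. None of these sign changes involved a difference called in the report except that of Il36a between M1 and M2. The density minimum and the settings without both WT replicate 1 libraries were chosen after seeing the data, and the cause of these changes was not tested. The density minimum also cut the libraries unevenly, as given with Il1b.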
